A study of Arabidopsis thaliana with 2 samples.

Results

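The mesophyll-like nuclei described here were 577 of 8942 nuclei from Arabidopsis thaliana floral meristems: 285 of 4397 at day 3 (6.48%, 5.77 to 7.25) and 292 of 4545 at day 4 (6.42%, 5.73 to 7.18). A barcode counted as a nucleus when it held at least 1000 detected genes of the nuclear genome. A nucleus was called mesophyll-like when the share of its nuclear-gene UMIs (unique molecular identifiers, counts of captured RNA molecules) that came from 7 genes was in the top 12% of its library, when at least 3 of the 7 were detected, and when no more than 1 of 4 genes marking other nuclei was detected. The 7 genes were AT2G10940, CA2 (a beta carbonic anhydrase), CP2 (a papain-like cysteine protease), AT1G09750, AT5G42530, AT4G10060 and AT2G23060, and the 4 others were AT5G53486, AT1G52700, AT5G59305 and SBT3.13 (a subtilase). Intervals here and below are exact 95% intervals, Clopper-Pearson for shares and Poisson for summed counts, and cover counting error only.

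Nuclei were sorted from plants of the Landsberg erecta background that carried the ap1-1 and cal-1 mutations and a fusion of APETALA1 to the rat glucocorticoid receptor (AP1-GR) driven by the AP1 promoter, so both libraries shared all of these alleles. The ap1 cal double mutant makes masses of inflorescence-like meristems in place of flowers, and dexamethasone (DEX), a glucocorticoid, moves AP1-GR into the nucleus and starts flower formation at about the same time in all of them. Main inflorescences were treated daily with 2 µM DEX at 22 °C under 16 h light and 8 h dark, and about 20 inflorescences were pooled for each of the 2 10x Chromium libraries, 1 taken at day 3 (stage 4 flowers) and 1 at day 4 (stage 5 flowers). The treatment text of the day 3 library also names the fourth day, and its title was followed. With 1 library per day the day could not be told apart from the library, no test between days or between kinds of nuclei was possible, and every comparison below is a description of these 2 libraries.

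Mesophyll is the photosynthetic ground tissue of leaves and of leaf-like organs such as sepals, and its precursors lie below the epidermis of young organs and of the stem. Most proteins of the chloroplast are encoded in the nucleus, so a nucleus can be placed on the way to a photosynthetic cell by its transcripts for light-harvesting proteins, Rubisco small subunits and the photorespiratory enzymes of the chloroplast, peroxisome and mitochondrion. Ground tissue that does not become mesophyll includes cortex, which in roots and stems lies between the epidermis and the vasculature.

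The 2 libraries held 11083512 nuclear-gene UMIs at day 3 and 10202530 at day 4 over their nuclei. The day 3 table listed every barcode, whereas the day 4 table listed 7716 barcodes already called as nuclei, so RNA outside nuclei could be estimated from day 3 alone, over the 571328 barcodes with 1 to 100 UMIs. Doublets were not removed, and 6 nuclei, none of them mesophyll-like, had a barcode found in both libraries. Mesophyll-like nuclei were slightly deeper than the others, with a median of 1950 against 1836 UMIs at day 3 and 1976 against 1795 at day 4, and 17 (5.96%) and 24 (8.22%) of them were among the 8% of nuclei with the most UMIs. Shares of nuclei with a UMI are therefore given after thinning every nucleus to 1000 UMIs, and levels are sums over nuclei in CPM (UMIs of a gene per 1000000 nuclear-gene UMIs).

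The nuclei were chosen by the UMIs of these 7 genes, whose levels are therefore high in them by construction and are given as a description. AT2G10940, which encodes a protein of the lipid-transfer superfamily, was at 757 CPM (694 to 824) in mesophyll-like and 67.3 CPM in other nuclei at day 3, and at 919.8 CPM (849 to 995) and 90.3 CPM at day 4. CA2 was at 111 CPM (87.5 to 138) and 4.34 CPM at day 3 and at 243 CPM (208 to 283) and 6.30 CPM at day 4. CP2 was at 1754 CPM (1658 to 1855) and 246 CPM at day 3 and at 1842 CPM (1742 to 1947) and 249 CPM at day 4. The other 4 genes were between 274 (AT4G10060, day 3) and 715 CPM (AT5G42530, day 4) in mesophyll-like nuclei and between 43.8 and 72.6 CPM elsewhere. The score threshold was 0.210% of UMIs at day 3 and 0.227% at day 4, the nuclei just inside it scored 0.211% and 0.228%, and the nearest nuclei that met the gene conditions but missed it scored 0.209% and 0.227%. Of the 528 and 546 nuclei in the top 12%, 300 and 303 had at least 3 of the 7 genes, and 15 and 11 of these were left out for holding more than 1 of the 4 excluding genes. Most mesophyll-like nuclei were near the minimum of the rule: 155 and 170 held exactly 3 of the 7 genes, 96 and 92 held 4, and a single nucleus, at day 4, held all 7.

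Of 10 genes tested from a list of 11 mesophyll genes, 8 at day 3 and 9 at day 4 were at least 2-fold higher in mesophyll-like nuclei, against 2.44% and 2.39% of all genes tested (360 of 14741 and 350 of 14672). Fold differences are log2 ratios of mesophyll-like over other nuclei with 10 CPM added to both, over genes with at least 100 UMIs in the library, and the genes of the rule were left out. The list's median log2 ratio was 1.27 and 1.51, against -0.07 and -0.06 over all genes tested. Of the 11 genes, 9 are also cluster markers that the study drew from the day 4 library, and so are not independent of these data. REC2, which with its relatives REC1 and REC3 sets the share of a cell taken up by chloroplasts, was at 295 CPM (256 to 338) against 85.9 CPM at day 3 and 410.1 CPM (363 to 461) against 109.9 CPM at day 4. GLK2, a transcription factor that switches on nuclear photosynthesis genes, was at 148 CPM (121 to 179) against 41.7 CPM at day 3 and 114 CPM (90.3 to 143) against 36.0 CPM at day 4, and CIA2, a regulator of chloroplast protein import and translation genes, was higher at both days as well (log2 ratios 1.09 and 1.52). LOX2, the chloroplast lipoxygenase that starts jasmonate synthesis in leaves, was at 116 CPM (92.6 to 144) against 28.8 CPM and 289 CPM (249.7 to 332) against 64.8 CPM, but a UMI of it was found in only 7.37% (4.62 to 11.0) and 13.7% (9.97 to 18.2) of mesophyll-like nuclei at 1000 UMIs.

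Of 6 tested markers of cortex and ground tissue, 3 were at least 2-fold higher in the same nuclei at both days, against 1.68% of all genes tested. The name mesophyll-like may therefore describe only part of what the rule selected. JKD, a zinc-finger factor known from the root ground tissue, was at 226 CPM (192 to 264) against 59.9 CPM at day 3 and 234 CPM (199 to 274) against 71.7 CPM at day 4. EPFL6, a secreted peptide of the inner stem tissues that acts on stomatal patterning, had log2 ratios of 1.27 and 1.5, and CO2, a marker of root cortex, of 1.19 and 1.4. JKD, EPFL6 and CO2 are all cluster markers of the study, and no other gene of the list was 2-fold higher. The list's medians were 0.78 and 0.66, with 4 genes above and 2 below 0 at day 3 and 3 above and 3 below at day 4, and the day 4 median was -0.10 when genes under the UMI minimum were included. Among the others SHR, a mobile factor made in the vascular cylinder, was lower at day 4 (-1.3) and SCL23, a relative of SCR, had ratios of 0.37 and -0.09. JKD had a UMI in 19.6% and 19.5% of mesophyll-like nuclei and in 5.79% and 6.07% of the others.

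Markers of other tissues were lower in mesophyll-like nuclei but not absent, and since the rule itself leaves out nuclei by 4 genes of other nuclei, these levels are a description. Summed over 10 epidermis genes the level was 2234 CPM (2125 to 2347) against 4047 CPM in other nuclei at day 3 and 1087 CPM (1010 to 1168) against 3687 CPM at day 4, and 4 and 9 of the 10 were at least 2-fold lower, against 2.52% and 4.21% of all genes tested. PDF1, a cell-wall protein gene of the outer cell layer, still had a UMI in 31.2% and 28.8% of mesophyll-like nuclei, beside 47.2% and 42.5% of the others and 25.6% and 24.4% of procambium-scored nuclei, which should lack it. Procambium-scored and epidermis-scored nuclei are the nuclei outside the mesophyll-like class in the top 12% for the summed share of those marker lists, with at least 3 list genes detected (429 and 464, and 518 and 538). Over all 10 epidermis genes the level in procambium-scored nuclei was 1216 and 1133 CPM, below that in mesophyll-like nuclei at day 3 and close to it at day 4. Procambium genes were at 636 CPM (578 to 698) against 1425 CPM and 639 CPM (580.0 to 701) against 1551 CPM, and 5 of 8 and 6 of 9 were at least 2-fold lower. At least 2 of the 10 epidermis genes were detected in 27.7% and 18.5% of mesophyll-like nuclei and in 43.5% and 40.9% of the others, beside 19.6% and 14.9% of procambium-scored nuclei. Dropping every nucleus with 2 epidermis genes at its own depth left 153 and 194 mesophyll-like nuclei, with a light-reaction median of 0.73 at day 3.

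Nuclear genes of the light reactions were higher as a group. These genes encode the light-harvesting antenna, the small subunits of photosystems I and II and the electron carriers of the thylakoid membrane. All 45 tested genes of the list had a log2 ratio above 0 at both days, with medians of 0.80 and 0.91. At least 2-fold higher were 7 and 16 of them, against 2.44% and 2.39% of all genes tested. Their summed level was 12698 CPM (12436 to 12964) against 7023 CPM at day 3 and 12011 CPM (11753 to 12274) against 6111 CPM at day 4. Of the 46 listed genes, 16 are cluster markers of the study. The summed level in epidermis-scored nuclei was 5979.6 and 5181 CPM, in procambium-scored nuclei 5523 and 4227 CPM, and in the RNA outside nuclei at day 3 8883 CPM. Light-reaction transcripts were thus found in every set of nuclei and in the RNA outside them, and how much of the level in each set came from free RNA was not tested. In a nucleus of 1000 UMIs the median was 10 light-reaction UMIs (quartiles 7 and 15) in mesophyll-like and 6 (3 and 9) in other nuclei at day 3, and 10 (7 and 14) and 5 (3 and 8) at day 4. The quartile ranges of mesophyll-like and other nuclei overlapped at both days.

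**Figure D1:**
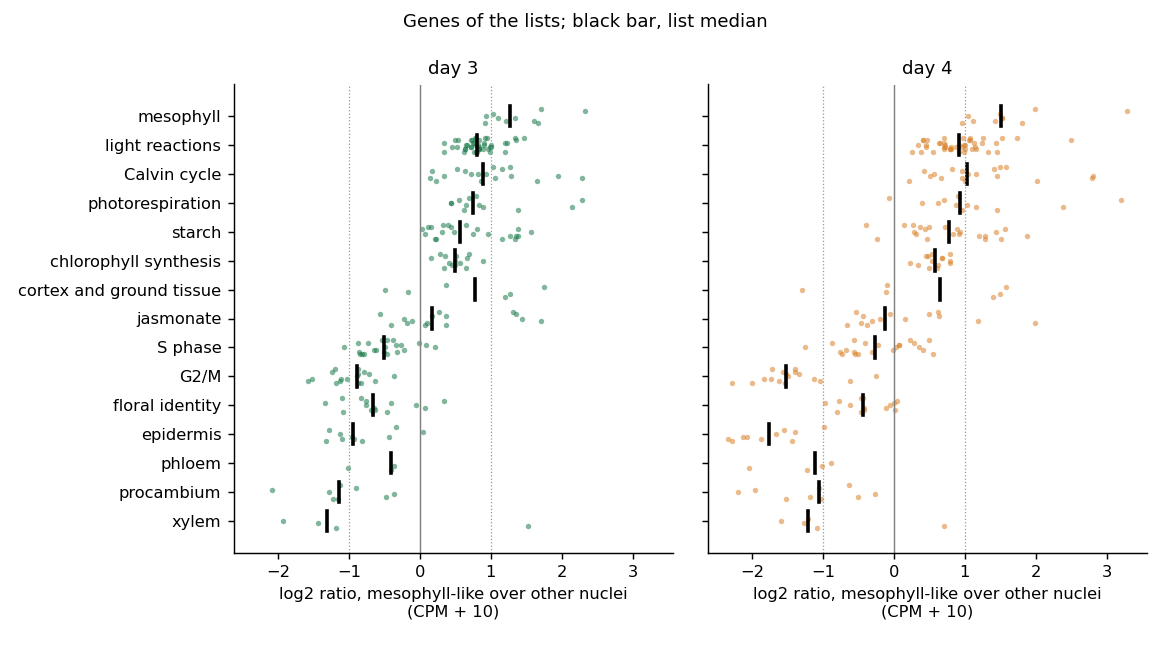
Log2 ratio of mesophyll-like over other nuclei (CPM with 10 added) for each tested gene of 15 lists at day 3 (left) and day 4 (right), 1 point per gene, with a black bar at the list median and dotted lines at 2-fold. The light-reaction points all lie right of 0 (medians 0.80 and 0.91), and the G2/M points all lie left of it (-0.88 and -1.52).

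The upstream sequences of photosynthesis genes are shown because all tested light-reaction genes were higher in these nuclei while their ratios were unequal. Each line is the 250 bases before the annotated gene start, 5′ to 3′ on the strand of the gene, from the RefSeq TAIR10.1 assembly, which is the Col-0 accession and not the Landsberg erecta plants used here. Capitals mark 4 motifs searched on both strands: the G-box CACGTG, the I-box GATAAG, the CCAAT-type motif CCAATC and the evening element AAATATCT. RBCS2B (a Rubisco small subunit) is chr5:15382072-15382321 on the minus strand, RCA (Rubisco activase) chr2:16573693-16573942 on the minus strand, LHCB1.3 chr1:10477635-10477884 on the plus strand, LHCB2.2 chr2:1800473-1800722 on the minus strand and LHCB4.1 chr5:208616-208865 on the plus strand, the last 3 being antenna proteins of photosystem II, and CP2 (chr4:6886916-6887165 on the plus strand) and AT2G10940 (chr2:4312163-4312412 on the minus strand) are genes of the rule.
RBCS2B: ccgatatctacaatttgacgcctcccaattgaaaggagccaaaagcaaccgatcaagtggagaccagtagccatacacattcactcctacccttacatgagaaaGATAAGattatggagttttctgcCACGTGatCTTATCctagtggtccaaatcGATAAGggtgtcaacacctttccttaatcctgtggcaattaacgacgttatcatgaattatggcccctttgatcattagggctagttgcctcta
RCA: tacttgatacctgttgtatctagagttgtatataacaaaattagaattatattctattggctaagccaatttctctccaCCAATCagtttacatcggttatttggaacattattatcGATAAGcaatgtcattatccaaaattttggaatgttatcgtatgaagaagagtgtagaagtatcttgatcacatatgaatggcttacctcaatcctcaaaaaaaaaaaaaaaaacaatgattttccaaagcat
LHCB1.3: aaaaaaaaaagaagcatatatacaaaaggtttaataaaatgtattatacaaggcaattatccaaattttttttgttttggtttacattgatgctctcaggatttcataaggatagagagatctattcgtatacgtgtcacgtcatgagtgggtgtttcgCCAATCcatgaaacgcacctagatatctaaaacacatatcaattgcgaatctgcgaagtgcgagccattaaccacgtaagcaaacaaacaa
LHCB2.2: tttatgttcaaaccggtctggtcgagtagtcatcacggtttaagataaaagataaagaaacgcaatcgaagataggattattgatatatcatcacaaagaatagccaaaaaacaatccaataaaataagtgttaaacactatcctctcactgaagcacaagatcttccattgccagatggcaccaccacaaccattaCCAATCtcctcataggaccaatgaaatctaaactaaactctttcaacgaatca
LHCB4.1: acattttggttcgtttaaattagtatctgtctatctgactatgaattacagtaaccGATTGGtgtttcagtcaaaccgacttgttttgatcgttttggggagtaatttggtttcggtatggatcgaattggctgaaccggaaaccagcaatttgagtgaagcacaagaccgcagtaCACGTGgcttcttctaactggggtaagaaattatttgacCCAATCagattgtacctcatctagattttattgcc
CP2: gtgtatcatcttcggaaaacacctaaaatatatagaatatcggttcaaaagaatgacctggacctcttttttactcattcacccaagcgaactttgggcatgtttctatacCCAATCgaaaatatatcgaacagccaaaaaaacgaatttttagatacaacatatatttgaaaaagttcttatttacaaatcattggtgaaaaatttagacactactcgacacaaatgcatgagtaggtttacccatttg
AT2G10940: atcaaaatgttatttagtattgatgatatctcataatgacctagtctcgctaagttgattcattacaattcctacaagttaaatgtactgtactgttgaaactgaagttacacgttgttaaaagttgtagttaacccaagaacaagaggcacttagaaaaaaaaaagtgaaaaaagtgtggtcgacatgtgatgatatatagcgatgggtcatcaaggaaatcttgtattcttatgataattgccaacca

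RBCS2B held an I-box starting 146 bases before the gene start, a G-box at 123 and I-boxes at 115 and 94. LHCB4.1 held a G-box at 74 bases between CCAATC matches at 194 and 35. LHCB1.3 and LHCB2.2 each held 1 CCAATC, at 91 and 53 bases, RCA held CCAATC at 171 and an I-box at 133, CP2 held CCAATC at 139, and AT2G10940 held none of the 4 motifs. The windows of RBCS1A, RBCS1B and RBCS3B, not printed here, held none of the 4 motifs either. Over the light-reaction genes tested at both days, 28.9% of windows held CCAATC, 26.7% the I-box, 17.8% the G-box and 2.22% the evening element. The same shares were 11.1%, 11.1%, 11.1% and 0% over 18 Calvin cycle genes and 16.7%, 8.33%, 16.7% and 0% over 12 photorespiration genes. Over all 14108 genes tested at both days with a window the shares were 10.7%, 12.1%, 7.60% and 4.97%. Among the 240 such genes at least 2-fold higher in mesophyll-like nuclei at both days the shares were 13.8%, 15.8%, 8.33% and 7.92%, nearer to the whole set than to the light-reaction genes for CCAATC, the I-box and the G-box. No binding was measured, and the matches are a description of these windows.

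Among the antenna genes LHCB2.2 had the highest ratio at day 4, at 92.3 CPM (71.2 to 118) against 30.0 CPM at day 3 and 271 CPM (233 to 313) against 39.9 CPM at day 4 (log2 ratios 1.36 and 2.49). LHCB1.3 was at 1865 CPM (1766 to 1969) against 955 CPM at day 3 and 1372 CPM (1286 to 1463) against 783 CPM at day 4. LHCB4.1 showed the smallest ratio of the LHCB genes tested at day 4 (0.83 and 0.47). The share of 50-base exon stretches found more than once in the genome was 29.5% for LHCB2.2, 23.6% for LHCB2.1, 20.5% for LHCB1.1 and 17.0% for LHCB1.3. Counts may therefore be split between antenna copies. FNR2, the ferredoxin-NADP reductase that makes NADPH in the stroma, shared 0% of its stretches and had ratios of 1.2 and 1.44. At the low end PSBY, a small photosystem II subunit, had ratios of 0.45 and 0.46, and ATPD, the delta subunit of the chloroplast ATP synthase, of 0.76 and 0.25.

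Genes of the Calvin cycle, which fixes carbon dioxide in the chloroplast stroma, had medians of 0.89 and 1.03. Of 18 tested genes 8 and 10 were at least 2-fold higher, against 2.44% and 2.39% of all genes tested. The summed level was 4524 CPM (4368 to 4684) against 2376 CPM at day 3 and 4492 CPM (4334 to 4654) against 2009 CPM at day 4. The 4 Rubisco small subunit genes had unequal ratios. RBCS2B was at 106 CPM (83.7 to 133) against 14.0 CPM at day 3 and 119 CPM (94.2 to 147) against 8.51 CPM at day 4, a ratio of 2.28 and 2.80. RBCS1B and RBCS3B had ratios of 1.94 and 2.81, and of 1.66 and 2.01. RBCS1A was at 1632 CPM (1539 to 1729.5) against 853 CPM and 1336 CPM (1250.4 to 1425) against 640.2 CPM, ratios of 0.93 and 1.05. None of its 50-base exon stretches occurs more than once in the genome, whereas up to 16.9% do in the other 3. RBCS1A also had a UMI in 66.0% and 60.3% of mesophyll-like, 43.8% and 38.5% of epidermis-scored and 34.5% and 35.3% of procambium-scored nuclei at 1000 UMIs, so it was detected widely in every set. FBA2, a plastid aldolase, and GAPB, a subunit of the plastid glyceraldehyde-3-phosphate dehydrogenase, had ratios of 1.27 and 1.58, and of 1.29 and 1.45. PDTPI (plastid triose-phosphate isomerase) and CP12-1 (a small regulator that binds the cycle's enzymes) were among the least changed, at 0.16 and 0.43, and 0.22 and 0.21.

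Photorespiration salvages the product of Rubisco's oxygenation across chloroplast, peroxisome and mitochondrion, and its genes had medians of 0.74 and 0.93. Of 12 tested genes 3 and 5 were at least 2-fold higher, against 2.44% and 2.39% of all genes tested. AGT1, the peroxisomal serine:glyoxylate aminotransferase, was at 95.1 CPM (73.7 to 121) against 11.6 CPM at day 3 and 204 CPM (171 to 240.4) against 13.1 CPM at day 4. GOX1, a peroxisomal glycolate oxidase, was at 119 CPM (95.1 to 148) against 19.3 CPM and 190.4 CPM (159 to 226) against 28.5 CPM, and its relative GOX2 had ratios of 1.38 and 1.46. The 3 highest ratios of the list thus belonged to peroxisomal enzymes. CAT2, the catalase that removes the hydrogen peroxide made by glycolate oxidase, had ratios of 0.44 and 0.63, and SHM1, the mitochondrial serine hydroxymethyltransferase, of 0.55 and 0.71. PGLP1, the chloroplast phosphoglycolate phosphatase, is uncertain because all of its 50-base exon stretches occur more than once in the genome. All 14 tested genes of chlorophyll synthesis had ratios above 0 at both days and none reached 2-fold at either day, with medians of 0.49 and 0.58. PORB, a light-dependent protochlorophyllide reductase, had the highest ratios of these (0.89 and 0.80).

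Of 22 tested starch genes, 22 at day 3 and 20 at day 4 had ratios above 0, of unequal size, with medians of 0.56 and 0.78. At each day 7 of 22 were at least 2-fold higher, against 2.44% and 2.39% of all genes tested. On the side of breakdown SEX1, the glucan water dikinase that opens the starch granule, was at 380.4 CPM (336 to 429) against 144 CPM and 397 CPM (351 to 447) against 133 CPM. SEX4 (a glucan phosphatase), BAM3 (a plastid beta-amylase) and BAM5 (a beta-amylase outside the plastid) had ratios of 1.26 and 1.29, 1.38 and 1.57, and 1.56 and 1.43. On the side of synthesis APL1, a large subunit of ADP-glucose pyrophosphorylase, was at 83.7 CPM (63.8 to 108) against 26.0 CPM and 132 CPM (106 to 162) against 28.7 CPM. GBSS1, the granule-bound synthase that makes amylose, had ratios of 1.35 and 1.2. The small subunit APS1, the soluble synthase SS1 and the maltose exporter MEX1 had ratios between -0.24 and 0.44. MEX1 is uncertain because 62.2% of its 50-base exon stretches occur more than once in the genome.

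Of the regulators of chloroplast formation, only GLK2 and CIA2 reached 2-fold at either day among 11 tested of a list of 14. The list's medians were 0.06 and 0.20, and of all genes tested 2.44% and 2.39% were at least 2-fold higher. GNC, a GATA factor that raises chlorophyll content, and GLK1 had ratios of 1.52 and 1.53, and of 1.38 and 0.82, from 23 and 25 and from 16 and 12 UMIs in mesophyll-like nuclei, below the gene minimum of the test in at least 1 library. The division factors ARC6 and PDV1 had ratios of 0.08 and -0.21, and -0.19 and -0.62.

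Over all genes, 242 (1.68% of 14369 tested at both days) were at least 2-fold higher in mesophyll-like nuclei at both days. With the gene conditions applied before the top 12% was taken, all 454 nuclei at day 3 and 412 at day 4 that met them were kept, whatever their score. The genes at least 2-fold higher were then 104 at day 3 and 228 at day 4. The 15 with the highest ratio in the lower of the 2 days included metabolic genes, membrane proteins and the photosynthesis genes CA1, RBCS2B, AGT1 and GOX1. The first was AT1G27030, at 128 CPM (103 to 157) against 13.8 CPM at day 3 and 135 CPM (109 to 165) against 14.7 CPM at day 4. CA1, the chloroplast beta carbonic anhydrase, was at 86.6 CPM (66.2 to 111) against 9.25 CPM at day 3 and 171 CPM (142 to 205) against 8.61 CPM at day 4, but these UMIs came from only 14 and 23 nuclei. The cytochrome P450 gene CYP72A13 was spread more widely, with a UMI in 18.6% and 29.8% of mesophyll-like and 3.53% and 4.80% of other nuclei at 1000 UMIs. Its level was 223 CPM (189 to 261) against 37.7 CPM at day 3 and 391 CPM (346 to 441) against 61.2 CPM at day 4. CYP82G1, which makes a volatile homoterpene of damaged leaves, and CYP71B26 had ratios of 2.42 and 2.27, and of 2.24 and 2.54. NIA2, the main nitrate reductase, was at 128 CPM (103 to 157) against 13.9 CPM at day 3 and 99.6 CPM (77.3 to 126) against 13.1 CPM at day 4. GER3, a germin-like protein of the cell wall, CNGC4, a cyclic nucleotide-gated channel known from plant immunity, and GPT2, a plastid glucose-6-phosphate translocator, had ratios of 2.29 and 2.43, 2.26 and 2.39, and 2.11 and 2.27. AT3G55240, AT2G40435 and AT5G49770 completed the set, with ratios from 2.11 to 2.56 over both days.

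**Figure D2:**
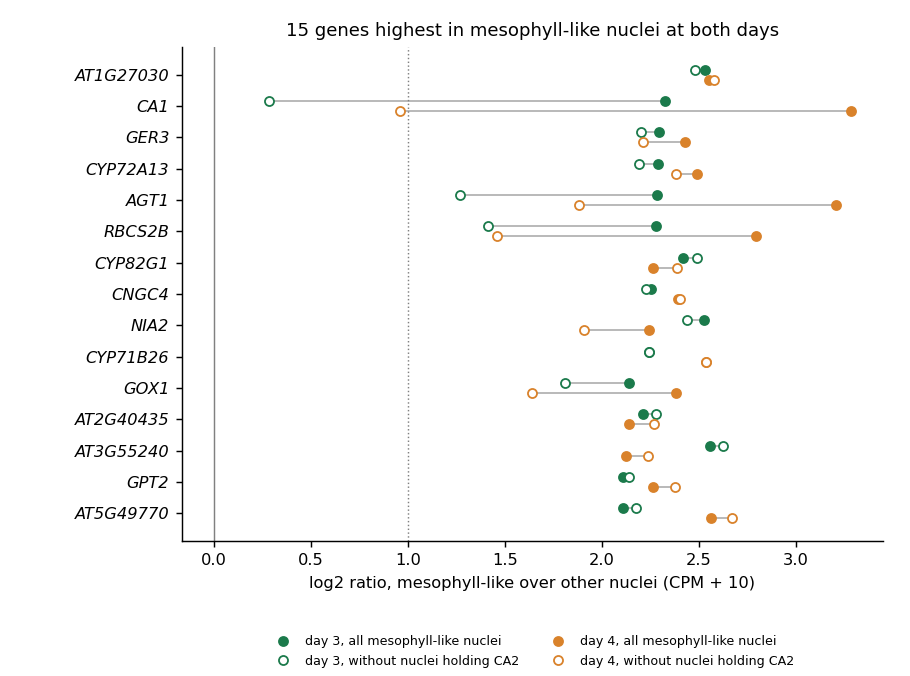
Log2 ratio of mesophyll-like over other nuclei (CPM with 10 added) for the 15 leading genes outside the rule at day 3 and day 4, with filled points for all mesophyll-like nuclei, open points without those that held CA2 and a dotted line at 2-fold. The points of CA1 lie furthest apart (3.28 and 0.96 at day 4), and CA1, AGT1 and RBCS2B are the 3 genes with open points furthest left at day 3 (0.29, 1.27 and 1.41).

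The 10 genes furthest below the other nuclei included genes of procambium and xylem. ATHB8, a class III homeodomain factor of the procambium, was at 12.8 CPM (5.84 to 24.3) against 87.3 CPM at day 3 and 19.0 CPM against 103 CPM at day 4. ACL5, the thermospermine synthase of young xylem, was at 11.4 CPM (4.90 to 22.4) against 71.9 CPM at day 3 and 13.2 CPM (6.03 to 25.0) against 59.9 CPM at day 4. KP1, a kinesin-like motor protein, and ACI1 were also among the 10 lowest, with ratios of -1.60 and -1.75, and of -1.68 and -2.33. The other 6 were AT1G23340, AT1G21810, AT4G29920, AT1G02190, AT2G39850 and AT1G78865, and AT1G02190 had ratios of -1.75 and -1.71. In all 216 genes (1.5% of those tested at both days) were at least 2-fold lower at both days.

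Genes of mitosis were lower as a list, and genes of DNA replication had medians nearer to 0. The 17 G2/M genes had medians of -0.88 and -1.52, and 8 and 15 were at least 2-fold lower, against 2.52% and 4.21% of all genes tested. Their sum was 2045 CPM (1941 to 2154) against 4754 CPM at day 3 and 1099.9 CPM (1023 to 1182) against 3460.3 CPM at day 4. The medians depended on the setting but stayed below 0, from -0.61 to -1.40 at day 3 and from -0.80 to -1.82 at day 4. KNOLLE, the syntaxin of the cell plate, had ratios of -1.19 and -2.0, and CYCB1;2, a mitotic cyclin, of -1.03 and -1.83. CDKB1;1, which is already expressed in S phase, had the mildest ratios of the list (-0.37 and -0.25). The S phase list had medians of -0.50 and -0.27. Its histone genes were below 0 at both days, as for HIS4 at -0.79 and -0.50, whereas the helicase subunit genes MCM4 and MCM7 changed sign between the days, from -0.47 to 0.23 and from -0.38 to 0.49. At least 2 G2/M genes were detected in 18.2% and 13.4% of mesophyll-like nuclei at 1000 UMIs and in 36.0% and 25.6% of the others. CCS52B, an activator of the anaphase-promoting complex that peaks in mitosis, had ratios of -1.41 and -1.99, and KRP1, an inhibitor of cyclin-dependent kinases, of 0.47 and 1.79. Both belong to a list of 7 cell cycle exit genes with medians of -0.15 and -0.52. Of its 6 tested genes, 1 was above 0 at day 3 and 2 at day 4. The list summed to 403 CPM against 859 CPM in other nuclei at day 3 and 271 CPM against 685 CPM at day 4.

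Of 14 tested floral identity genes, 12 had ratios below 0 at each day, and meristem regulators were mixed. PI and AP3, the B-class genes of petals and stamens, had ratios of -1.35 and -0.98, and of -1.11 and -0.47, and AG, the C-class gene, of -1.09 and -0.46. These were the 3 of 14 floral identity genes that were at least 2-fold lower at day 3, against 2.52% of all genes tested. At day 4 none reached 2-fold (list medians -0.67 and -0.44), against 4.21%. AP1, whose promoter drives the fusion protein in these plants, was nearly equal in mesophyll-like and other nuclei at both days (-0.06 and -0.05), and its counts cannot separate the endogenous gene from the transgene. KNAT1, a homeobox gene of the stem and meristem, had ratios of 1.05 and 0.63 and KNAT6, its boundary relative, of 0.82 and 0.69. AIL6, an AP2-type factor of young flower primordia, was lower at both days (-1.4 and -1.75). Of 10 tested genes of the meristem and boundary list, 5 were above and 5 below 0 at each day (medians 0.10 and 0.03). Among genes of leaf polarity REV, an adaxial class III factor that also acts in the vasculature, had ratios of -0.95 and -1.3. The abaxial factors ETT and KAN2 had ratios of 0.67 and 0.47, and of 0.90 and 0.26. The abaxial list was mixed, with medians of 0.12 and 0.17 and no gene past 2-fold. It had 5 genes above and 4 below 0 at day 3, and 5 above and 3 below at day 4. The adaxial list had medians of -0.82 and -0.67, with 1 of 4 tested genes above 0 at each day.

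Within the mesophyll-like class, nuclei with CA2 had higher levels of photosynthesis genes and lower levels of ground tissue markers than the rest. CA2 was detected in 12 of the 285 nuclei at day 3 and 19 of the 292 at day 4, at their full depth. Because CA2 is a gene of the rule its own level is no result, and nuclei of the class without CA2 had to hold other genes of the rule, so the values below describe the class as selected. CA1 was at 1436 CPM (1073 to 1883) in the nuclei with CA2 and 13.5 CPM (6.16 to 25.6) in those without at day 3, and at 1399 CPM (1139 to 1699) and 26.2 CPM (15.0 to 42.6) at day 4. LOX2 was at 773 CPM (514 to 1118) and 80.8 CPM (60.7 to 105) at day 3 and at 720.1 CPM (538 to 944) and 237 CPM (200.4 to 279) at day 4. JKD went the other way, with no UMI in the nuclei with CA2 at either day (upper limits 102 and 51.1 CPM) and 238 CPM (202 to 278) and 262 CPM (223 to 306) in those without. EPFL6 was at 27.6 against 199 CPM at day 3 and 83.1 against 283 CPM at day 4, and CO2 at 110.5 against 615 CPM and 55.4 against 434 CPM. Intervals of the nuclei with and without CA2 did not overlap for CA1 and LOX2 at either day, but they leave out the spread between nuclei. Of the CA1 UMIs in the class, 27.9% at day 3 and 18.8% at day 4 came from a single nucleus. Light-reaction genes summed to 17345 CPM (16015 to 18756) in the nuclei with CA2 and 12446 CPM (12180.5 to 12717) in those without at day 3, and to 26185 CPM (25018 to 27393) and 10335 CPM (10082 to 10593) at day 4. Photorespiration genes summed to 4806 CPM (4118 to 5575) and 1206 CPM (1124 to 1292) at day 3, and to 5899 CPM (5352 to 6487) and 1291 CPM (1202 to 1384) at day 4. The median depth of the nuclei with and without CA2 was 1937 and 1961 UMIs at day 3 and 3658 and 1909 at day 4, and the part of depth in these differences was not tested.

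**Figure D3:**
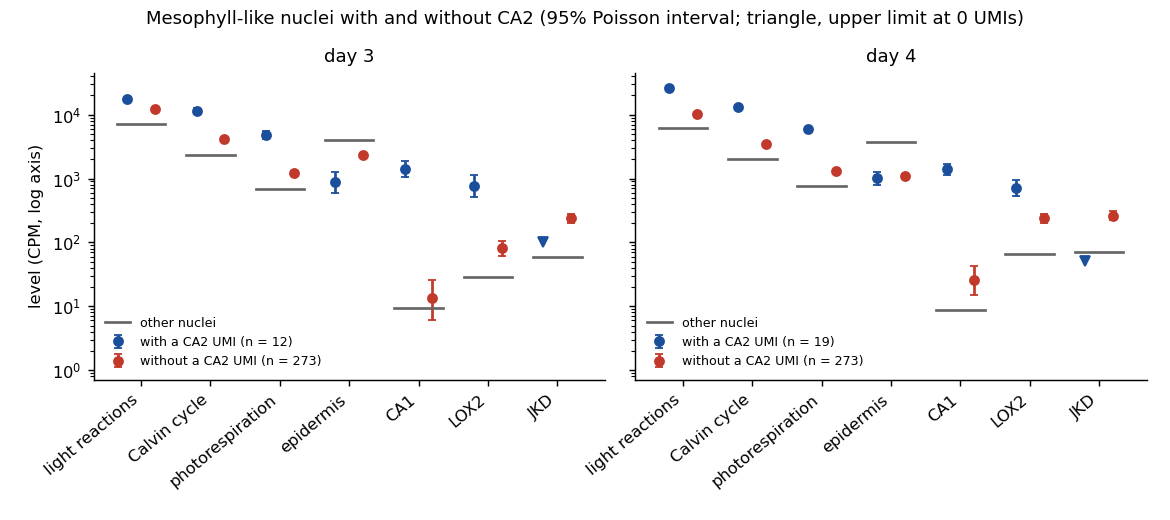
Levels in CPM (log axis) of 4 gene lists and of CA1, LOX2 and JKD in mesophyll-like nuclei with and without a CA2 UMI at day 3 (left) and day 4 (right), with exact Poisson 95% intervals, a triangle for the upper limit where no UMI was found, and grey bars for other nuclei. Calvin cycle genes are at 11628 against 4139 CPM at day 3 and 13183 against 3464 CPM at day 4, and CA1 without CA2 lies close to the level of other nuclei at day 3.

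Leaving out the nuclei with CA2, which was tried once their values had been seen, moved the leading photosynthesis genes unequally. The ratio of CA1 went from 2.33 and 3.28 to 0.29 and 0.96, so the 31 nuclei with CA2 carried most of it. AGT1 went to 1.27 and 1.88, RBCS2B to 1.41 and 1.46 and GOX1 to 1.81 and 1.64, all still above 1 at both days. AT1G27030 and GER3 hardly moved, at 2.48 and 2.58, and 2.2 and 2.21. The light-reaction median at day 4 went from 0.91 to 0.68.

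Pairs of these genes were then counted over every nucleus of a library at 1000 UMIs. CA2 and CA1 were found in the same nucleus 11 times at day 3 and 15 times at day 4, which was 61.9 (30.9 to 111) and 39.5 (22.1 to 65.1) times the number from their separate shares. CA2 and LOX2 were together at 17.2 and 5.86 times that number. CA2 and JKD were never together, where their shares gave 1.54 and 2.22 nuclei, a number too small for a 0 to show separation at this depth. AT2G23060, another gene of the rule, was with JKD at 3.01 and 2.69 times the number from their shares, and AT2G10940 was with LOX2 at 3.1 and 3.38 times. AT2G23060 with LOX2 was at 0.564 (0.116 to 1.65) and 0.962 (0.480 to 1.72) times, and AT2G10940 with JKD at 2.0 and 1.95 times. AT2G10940 was thus found with both LOX2 and JKD more often than their shares give, and AT2G23060 with JKD but not clearly more or less often with LOX2. LOX2 with JKD was at 0.840 (0.273 to 1.96) and 0.595 (0.257 to 1.17) times, intervals that include 1, so no separation of these genes was detectable over all nuclei. Within the mesophyll-like class LOX2 was found in 30 and 57 nuclei at full depth and JKD in 98 and 106, and where LOX2 was found JKD was at 28.8 against 247 CPM elsewhere at day 3 and 66.7 against 282 CPM at day 4.

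The levels of gene lists were also set against the number of the 7 genes detected, which uses the values of the rule and is a description that cannot separate a gradient from a group detected in part. Across all nuclei at 1000 UMIs, light-reaction genes summed to 5638 CPM in nuclei with none of the 7 genes and to 8284, 10821, 11209 and 12609.8 CPM with 1, 2, 3 and at least 4 of them at day 3. At day 4 the same sums were 5420.1, 7436, 10350.4, 11079 and 14917 CPM. The level was higher with each further gene at both days, although the intervals of nuclei with 2 and with 3 overlapped at both days, and those with 3 and with at least 4 at day 3. Epidermis genes went from 4316 to 1171 CPM at day 3 and from 4219.8 to 917 CPM at day 4 between the first and the last of these classes, and procambium genes from 1510.2 to 268 CPM and 1664 to 417 CPM. The last class held 41 and 36 nuclei. The nuclei with 1 of the 7 genes were 977 and 1070, and only 39 and 33 of them were mesophyll-like by the rule at full depth, although their light-reaction level was above that of nuclei with none.

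**Figure D4:**
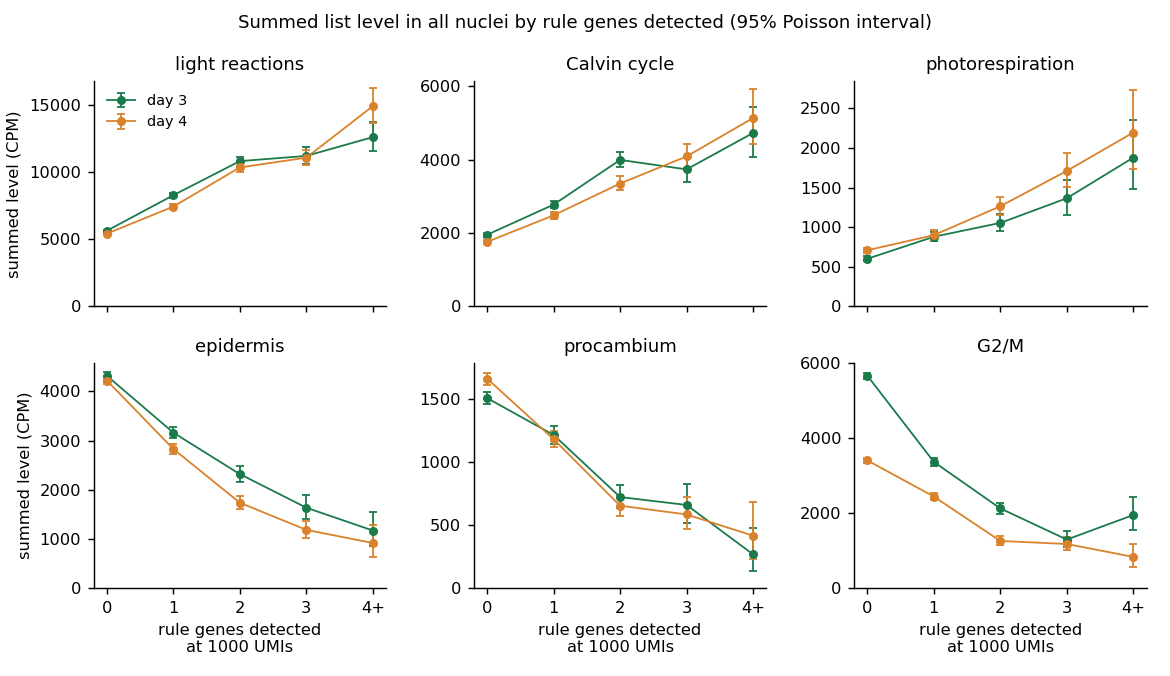
Summed level in CPM of 6 gene lists (1 panel each) in all nuclei thinned to 1000 UMIs, by the number of the 7 genes of the rule detected (0 to 4 or more), for day 3 and day 4, with exact Poisson 95% intervals. Light-reaction levels go from 5638 to 12609.8 CPM at day 3, epidermis and procambium levels go down at both days, and the G2/M level at day 3 is not lowest in the last class (1296 and 1951 CPM with 3 and at least 4).

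Mesophyll-like nuclei were near each other in expression more often than their share, but most of their neighbours were other nuclei. With the 11 genes of the rule left out, each nucleus was placed by 20 principal components of 2000 variable genes and its 20 nearest nuclei were listed. Mesophyll-like nuclei made up on average 32.8% and 35.3% of the neighbours of mesophyll-like nuclei, 4.29% and 4.56% of those of other nuclei, and 1.62% and 0.297% of those of epidermis-scored nuclei, beside their overall shares of 6.48% and 6.42%. For 82 (28.8%) and 104 (35.6%) mesophyll-like nuclei at least 50% of the neighbours were mesophyll-like, and for 23 (8.07%) and 26 (8.90%) none was. Since the 11 genes chose the nuclei and covary with others, these shares are a description.

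Jasmonate genes had list medians near 0, 0.18 and -0.13. At least 2-fold higher were 4 of 15 and 2 of 14, against 2.44% and 2.39% of all genes tested. The members that were higher are LOX2 and genes that respond to jasmonate in leaves. VSP1, a vegetative storage protein, was at 934 CPM (864 to 1008) against 371 CPM at day 3 and 373 CPM (329 to 422) against 262 CPM at day 4, and its relative VSP2 had ratios of 1.36 and 0.64. JR2, a jasmonate-inducible lyase, had ratios of 1.43 and 1.18. AOS and OPR3, which act after LOX2 in jasmonate synthesis, had ratios of -0.41 and -0.53, and of -0.56 and -0.44. Cell expansion genes were mixed too (medians 0.04 and -0.25), with the expansin EXPA3 at 1.25 and 1.28 and the tonoplast aquaporin TIP2;1 at 1.15 and 0.76. Aquaporins of the plasma membrane were near or below 0, as PIP2;7 at -0.44 and -0.58.

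Between the days, 84 genes (1.05% of 7974 with at least 50 UMIs over the mesophyll-like nuclei of both libraries) were at least 2-fold higher at day 4 in these nuclei and 96 (1.2%) at least 2-fold lower, and the median over all was 0.07. The libraries also differed in sequencing platform and in PCR cycles (11 and 14 at day 3, 14 and 13 at day 4), which cannot be told apart from the day. For several of the 8 genes that were highest at day 4 relative to day 3, the other nuclei gave nearly the same ratio. NUDX23, a nudix hydrolase, was at 29.8 CPM (18.5 to 45.6) and 113 CPM (89.0 to 141) in mesophyll-like nuclei (log2 ratio 1.62), and the ratio in other nuclei was 1.44. SOT12 (a sulfotransferase), UGT74E2 (an auxin glucosyltransferase) and AT5G54100 had ratios of 1.58, 1.54 and 1.51 in mesophyll-like and 1.39, 1.46 and 1.51 in other nuclei. SOT12 and UGT74E2 belong to the list of mitochondrial stress genes. The ratios of FRO6, LHCB2.2 and AT3G01800 were larger in mesophyll-like nuclei than elsewhere. FRO6, a ferric reductase of green tissue, was at 11.4 CPM (4.90 to 22.4) and 77.6 CPM (58.1 to 102), from 6 and 14 nuclei (ratio 2.04 against 0.15). In the genome 16.15% of its 50-base exon stretches occur more than once. Of its day 4 UMIs, 47 of 53 lay in nuclei with CA2, and without those nuclei FRO6 was at 4.49 and 9.83 CPM, with overlapping intervals. LHCB2.2 was at 92.3 CPM (71.2 to 118) and 271 CPM (233 to 313) (ratio 1.46 against 0.32), with a UMI in 8.07% of mesophyll-like nuclei at day 3 and 18.8% at day 4. AT3G01800 had ratios of 1.59 and 0.32, and HISN6B, a histidine synthesis gene that shares 81.9% of its stretches, of 1.49 and 0.68.

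**Figure D5:**
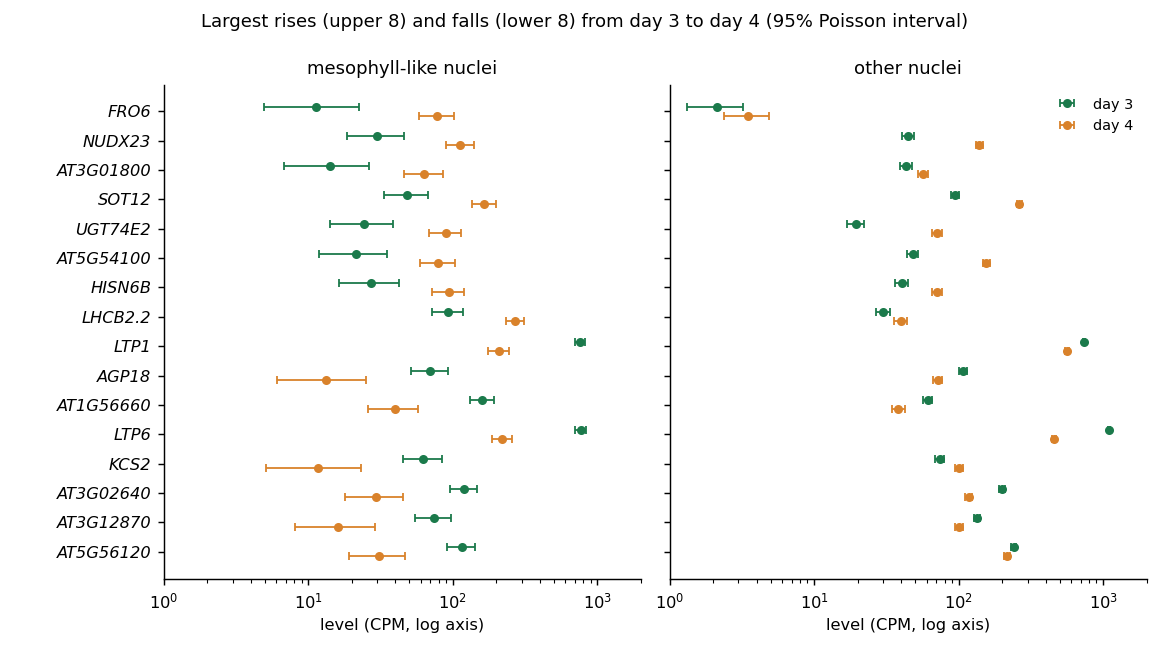
Level in CPM (log axis) at day 3 and day 4 in mesophyll-like (left) and other nuclei (right), with exact Poisson 95% intervals. The 8 genes with the highest and the 8 with the lowest ratio of day 4 over day 3 in mesophyll-like nuclei are shown. FRO6 is at 11.4 and 77.6 CPM in mesophyll-like and 2.12 and 3.47 CPM in other nuclei. LTP1 is at 759 and 208 CPM and at 738 and 563 CPM, and NUDX23 at 29.8 and 113 CPM and at 44.8 and 139 CPM.

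Lipid and cell-wall genes of the epidermis were among the genes with lower levels at day 4. LTP1, a lipid transfer protein, was at 759 CPM (696 to 827) in mesophyll-like nuclei of day 3 and 208 CPM (175 to 245) in those of day 4 (ratio -1.82), with a ratio of -0.38 elsewhere and levels of 2646 and 2240.4 CPM in epidermis-scored nuclei. LTP6 was at 765 CPM (702 to 832) and 219.7 CPM (186 to 258) (ratio -1.75 against -1.23), with 2924 and 1201 CPM in epidermis-scored nuclei, and 26.3% of its day 3 UMIs came from a single mesophyll-like nucleus. KCS2, an enzyme of very-long-chain fatty acid elongation, was at 62.5 CPM (45.4 to 83.8) and 11.7 CPM (5.06 to 23.1) (ratio -1.74 against 0.39). These changes went with the lower epidermis sum in mesophyll-like nuclei at day 4 (2234 and 1087 CPM over 10 genes), and the part of epidermal RNA in them was not tested. The other 5 genes were AGP18, an arabinogalactan protein gene, AT1G56660, AT3G02640, AT3G12870 and AT5G56120, with ratios from -1.78 to -1.62 in mesophyll-like and from -0.72 to -0.15 in other nuclei.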

How the data were processed

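Nuclei were sorted, loaded on the 10x Chromium system and sequenced by the study's authors, who deposited the counts of UMIs per gene and barcode made with Cell Ranger 3.1.0 (submitters' processing notes) and an Araport11 annotation, unnormalized; the genome build is not given in the sources used here. Of 36917 gene identifiers, 36632 matched the RefSeq TAIR10.1 gene table used for names and upstream windows. Chloroplast and mitochondrial genes were left out of totals, thresholds and CPM. The 7 genes of the rule and the gene lists were chosen with earlier results of these data known, and several are the study's own cluster markers. UMIs were summed over mesophyll-like and over other nuclei of each library, scaled to CPM, and compared as log2 ratios with 10 CPM added, for genes with at least 100 UMIs in the library (for the days, at least 50 over both sets of mesophyll-like nuclei). Nuclei of 1 library are not replicates, so no p-value was computed. Doublets were not called. Named genes were those of 29 lists, the 15 genes outside the rule with the highest ratio in the lower of both days, the 10 with the lowest ratio in the higher of both days, and the 8 highest and 8 lowest between the days. The calculation was tested on simulated data. Shared sequence was counted as 50-base exon stretches found more than once in the genome, whether or not in another gene. Scaling by TMM (edgeR 4.0.16) and by size factors (DESeq2 1.42.0) was tried, among 16 planned and 2 added alternatives. Python 3.11.15, numpy 2.4.6, scipy 1.17.1, pandas 2.3.3, scikit-learn 1.9.0 and R 4.3.3 were used.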

Additional observations from a re-analysis of the deposited data

Results flagged for a closer look

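The median log2 ratio of the jasmonate list had opposite signs at the 2 days, 0.18 at day 3 and -0.13 at day 4, and the difference was not tested. LOX2 was higher in mesophyll-like nuclei at both days (1.70 and 2.0), while VSP1 went from 1.31 to 0.50 and AOC3 (allene oxide cyclase) from -0.18 to -0.67.

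Genes encoded in the chloroplast were left out of every comparison, and their share of UMIs was higher in mesophyll-like nuclei: 3.63% (3.59 to 3.68) against 2.08% in other nuclei at day 3 and 2.51% (2.47 to 2.55) against 1.97% at day 4. In the median nucleus the shares were 2.32% against 1.79% and 1.73% against 1.56%. Mitochondrial genes went the other way, with 0.511% against 0.685% of UMIs at day 3 and 0.408% against 0.633% at day 4. Transcripts of the chloroplast genome are not made in the nucleus, and how they came to be counted with these barcodes was not tested.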

How the results depend on the processing

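No paired analysis was possible because each day has 1 library, and for the same reason no replicate could be left out. Among the 132 recomputed values of the main results, 92 stayed near the main value. For a count this meant within 1.5 times. For a list median it meant within an interval from the ranked ratios of the list's genes, which reflects their spread and not counting error. Every light-reaction median stayed above 0 (0.58 to 0.90 at day 3, 0.68 to 1.12 at day 4). The number of mesophyll-like nuclei (285 and 292) became 144 and 144 with a minimum of 1500 genes and 454 at day 3 with the gene conditions applied before the top 12% was taken. The latter kept every nucleus that met the conditions at either day, so no score cut acted. The number was 153 and 183 when scored at 1000 UMIs, 159 and 163 without CP2 in the score and 183 at day 4 without AT2G10940. It was 153 and 194 without nuclei holding 2 epidermis markers, which, like leaving out nuclei holding CA2, was chosen after seeing the data. Genes at least 2-fold higher (360 and 350) became 104 and 228 with the conditions first, 556 and 538 with a pseudocount of 1 CPM, 109 and 116 with 50 CPM, and 593 at day 3 without the epidermis-marker nuclei. Genes at least 2-fold lower (372 and 618) ranged from 22 to 1044 and from 111 to 1230. Between days, the 84 higher and 96 lower genes became 170 and 147 with 1 CPM, 5 and 16 with 50 CPM, 211 and 209 with no gene minimum beyond 1 UMI, 24 and 44 with a doubled minimum, 50 and 39 scored at 1000 UMIs, 48 and 51 without the epidermis-marker nuclei, and 59 lower with the top 8%. The light-reaction median at day 3 (0.80) was 0.70 with 1500 genes, 0.58 with the conditions first, 0.72 scored at 1000 UMIs, 0.90 without the deepest 8% of nuclei, 0.65 with 50 CPM, 0.74 without AT2G10940 and 0.73 without epidermis-marker nuclei, and at day 4 (0.91) it was 0.71 with 50 CPM, 1.12 without CP2 and 0.68 without CA2 nuclei. Some medians changed sign with both values at least 0.10 from 0. Meristem and boundary at day 3 (0.10) went to -0.10 with 500 and with 1500 genes and -0.31 without epidermis-marker nuclei. Jasmonate at day 4 (-0.13) went to 0.23 with 1500 genes, 0.16 with the doubled minimum, 0.13 without CP2 and 0.14 without AT2G10940. Cortex and ground tissue at day 4 (0.66) went to -0.10 with no gene minimum, and abaxial genes at day 4 (0.17) to -0.16 without CP2. Medians that changed sign with a value nearer to 0 were cell expansion at day 3 (0.04, from -0.15 to 0.21) and meristem and boundary at day 4 (0.03, from -0.14 to 0.26). Abaxial genes at day 3 (0.12, from -0.09 to 0.32) did so too. The causes were not tested. G2/M medians ranged from -1.40 to -0.61 at day 3 and -1.82 to -0.80 at day 4, and epidermis medians from -3.12 to -0.19 and -3.12 to -0.95. Scaling by TMM or by size factors shifted all ratios by at most 0.06.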

Other observations

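Genes of the mitochondrial stress response summed to less in mesophyll-like than in other nuclei at both days, 173 CPM (144 to 207) against 341 CPM at day 3 and 511 CPM (459 to 568) against 927 CPM at day 4, while both kinds of nuclei had higher levels at day 4. AOX1A, the alternative oxidase of mitochondria, had log2 ratios of -1.26 and -1.05 for mesophyll-like over other nuclei, and SOT12 of -0.85 and -0.65. Between day 3 and day 4 the list's median log2 ratio was 1.37 in mesophyll-like and 1.29 in other nuclei, and the day cannot be told apart from the library.

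Evening genes of the circadian clock had small ratios (medians 0.28 and 0.20), with none of 7 and of 6 tested genes past 2-fold. Of all genes tested, 2.44% and 2.39% were at least 2-fold higher and 2.52% and 4.21% lower. A 0 among so few genes is therefore not informative. Of 4 and 5 tested genes of the xylem list, CYP708A3 alone was above 2-fold, at day 3 (1.52 and 0.71). XCP2 and CESA8, a protease and a cellulose synthase of maturing vessels, were lower (-1.18 and -1.08, and -1.45 and -1.27). In all, 3 and 4 of the tested xylem genes were at least 2-fold lower. Among papain-like proteases other than CP2, none of the 5 tested genes reached 2-fold, again too few for a 0 to be informative. CP5 had ratios of 0.61 and 0.93, CP1 of 0.72 and 0.38 and RD21A of 0.33 and 0.26. Genes of aliphatic glucosinolate synthesis, which in leaves is found around veins, had medians of 0.03 and 0.19 over 4 and 3 tested genes.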
